A study of Mus musculus and Homo sapiens with 9 samples.

Results

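The erythroid membrane skeleton was represented by 8 genes, Sptb, Ank1, Epb41, Epb42, Slc4a1, Add2, Tmod1 and Rhag, of the 43432 rows of the mouse count table. They were chosen by name from their values in Irf2bp2 KO against Wild type, so their values in that comparison are a description and carry no test. The table held 5 RNA-seq libraries of CD3+ T cells sorted magnetically from mouse spleen. The 2 libraries labelled Irf2bp2 KO came from Vav-iCre+/-;Irf2bp2fl/fl mice and the 3 labelled Wild type, in the study's methods, from Vav-iCre-/-;Irf2bp2fl/fl mice, so both groups carried the floxed alleles and differed in the Cre transgene. Vav-iCre is active across the blood lineages, the erythroid lineage included, so the knockout was not limited to T cells. Mice of this cross were taken for flow cytometry at 6 weeks of age, and the study's text gives no separate age for the sorted animals. It is not given in the sources used here whether a library came from a single animal, and p-values measure the spread between these libraries. The values were also compared with 4 libraries of the T-ALL (T cell acute lymphoblastic leukemia) line J.gamma1, 2 with a control hairpin (shNC) and 2 with a hairpin against IRF2BP2 (shIRF2BP2).

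The red cell membrane rests on a protein network on its inner face. Spectrin, a long rod-shaped protein, forms the strands of the network, and short actin filaments form its nodes, held together by protein 4.1, adducin, tropomodulin and dematin. Ankyrin and protein 4.2 tie the spectrin to band 3, the anion exchanger of the membrane, and to the Rh complex. Inherited loss of these proteins makes red cells spherical or elliptical and fragile. Most of the genes belong to families whose other members serve the same purpose in other cells, T cells included.

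Total counts were between 16668577 and 37177523 in the mouse libraries, with Wild type 3 the shallowest, and between 26648204 and 31120236 in J.gamma1 cells. Irf2bp2 itself had 112, 127 and 120 CPM (counts scaled to a common library size, with TMM factors) in Wild type 1, 2 and 3 and 0 counts in both knockout libraries, which is at least 1469-fold lower at a floor of 3 counts per library. The 20 T cell markers were detected in every library and summed to 10706 to 12314 CPM in Wild type and 8161 to 8530 CPM in Irf2bp2 KO. Of the 20, 0 were called by edgeR (11 at an unadjusted p under 0.05, 0 by DESeq2). Over all genes tested, 2.47% were called higher and 0.111% lower. A count of 0 among 20 is near those shares, so it does not show that these markers were unchanged. Their log2 fold changes were above 0 for 2 and had a median of -0.43. Cd8b1 had an edgeR adjusted p = 0.0211 at a log2 fold change of -0.94, short of the size of 1 that a call needed. The 15 erythroid markers in the table, globins included, were also detected in every library. They summed to 845 to 2508 CPM in Wild type and 5185 to 7139 CPM in Irf2bp2 KO. Of the 15, 8 were called higher by edgeR (15 at an unadjusted p under 0.05, 11 by DESeq2), beside 2.47% of all genes tested. The globins were not among the 8 (edgeR adjusted p = 0.092 to 0.196). The part of the erythroid markers in the results below was not tested. In these bulk libraries, more cells of a type and more RNA per cell cannot be told apart.

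The RefSeq promoter table (GRCm38.p6) held 8 start sites for 6 of the genes, Sptb, Epb41, Epb42, Add2, Tmod1 and Rhag. The 250 bases before the start are shown for Sptb, which had the largest fold difference of the 8 genes, for Rhag and Epb42, which lie in the ankyrin complex, and for Epb41, whose levels did not follow the others. The windows, on the strand of the gene, were chr12:76710548-76710797 (minus) for Sptb, chr17:40810899-40811148 (plus) for Rhag, chr2:121036878-121037127 (minus) for Epb42 and chr4:132075314-132075563 (minus) for the outermost of 3 Epb41 starts. Capitals mark 2 kinds of words on either strand. The GATA words, which GATA factors such as the erythroid factor GATA1 can bind, were AGATAA or its variant AGATAG, and likewise TGATAA or its variant TGATAG. The word CACCC is contained in sites of the erythroid factor KLF1.
Sptb: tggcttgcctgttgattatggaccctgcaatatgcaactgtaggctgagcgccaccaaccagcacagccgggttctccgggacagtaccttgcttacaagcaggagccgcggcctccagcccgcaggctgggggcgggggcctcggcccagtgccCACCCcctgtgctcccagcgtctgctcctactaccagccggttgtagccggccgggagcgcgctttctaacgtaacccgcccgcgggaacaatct
Rhag: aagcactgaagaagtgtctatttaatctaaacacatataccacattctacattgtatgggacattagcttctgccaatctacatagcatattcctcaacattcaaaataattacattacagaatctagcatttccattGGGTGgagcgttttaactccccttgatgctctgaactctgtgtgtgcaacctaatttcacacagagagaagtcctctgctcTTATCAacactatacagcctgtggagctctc
Epb42: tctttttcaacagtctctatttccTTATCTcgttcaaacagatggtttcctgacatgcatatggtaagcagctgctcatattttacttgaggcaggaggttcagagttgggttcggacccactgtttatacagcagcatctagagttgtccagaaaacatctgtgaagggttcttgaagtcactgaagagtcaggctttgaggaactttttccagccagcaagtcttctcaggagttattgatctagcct
Epb41: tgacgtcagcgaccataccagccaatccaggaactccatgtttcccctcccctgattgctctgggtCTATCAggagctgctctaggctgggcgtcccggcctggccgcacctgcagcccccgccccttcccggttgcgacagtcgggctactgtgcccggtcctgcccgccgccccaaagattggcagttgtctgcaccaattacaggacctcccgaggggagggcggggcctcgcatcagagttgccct

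A GATA word lay 31 bases before the start of Rhag, 226 before that of Epb42 and 184 before the outermost start of Epb41, and CACCC lay 95 bases before the start of Sptb and 112 before that of Rhag; the marked words did not overlap. Over the 8 windows, 4 held a GATA word and 4 held CACCC. Of all 32817 windows of this length, 26.6% held a GATA word and 52% held CACCC. These matches are a description of the letters and no measure of binding.

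Beta spectrin, the strand of the network, was low in Wild type and abundant in Irf2bp2 KO. Sptb (ENSMUSG00000021061, chr12:76580488-76710547) had 7.72, 8.19 and 5.13 CPM in Wild type 1, 2 and 3 and 148 and 151 CPM in Irf2bp2 KO 1 and 2. The means were 7.01 ± 1.65 (SD, n = 3) and 149.6 ± 2.31 (SD, n = 2), a log2 fold change of 4.40, and the groups did not overlap.

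The genes of the ankyrin complex, which anchors the network to the membrane, were higher in both knockout libraries than in every Wild type library. Ank1 (ENSMUSG00000031543, chr8:22974844-23150497), which encodes the erythroid ankyrin, had 10.7, 11.3 and 5.94 CPM in Wild type and 129 and 157 CPM in Irf2bp2 KO, a log2 fold change of 3.92. Slc4a1 (ENSMUSG00000006574, chr11:102348824-102366203), which encodes band 3, had 36.7, 54.5 and 14.1 CPM against 403 and 504 CPM, a log2 fold change of 3.68. It was the most abundant of the 8 genes per kilobase of exon in both knockout libraries.

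Epb42 (ENSMUSG00000023216, chr2:121017891-121037072), which encodes protein 4.2, had 3.89, 5.78 and 0.88 CPM in Wild type, the lowest of these from 14 counts, and 36.1 and 46.0 CPM in Irf2bp2 KO, a log2 fold change of 3.50. Rhag (ENSMUSG00000023926, chr17:40811126-40840754), the Rh-associated glycoprotein, had 6.64, 10.2 and 2.38 CPM against 84.6 and 85.9 CPM, a log2 fold change of 3.70. Wild type 2 was the highest and Wild type 3 the lowest control for each of these 4 genes.

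The genes of the actin junction were split. Epb41 (ENSMUSG00000028906, chr4:131923413-132075321), which encodes protein 4.1R, was abundant in every library, with 205, 192 and 249 CPM in Wild type and 270 and 301 CPM in Irf2bp2 KO. Its log2 fold change was 0.41 and its groups did not overlap, with Wild type 3 the highest control.

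Add2 (ENSMUSG00000030000, chr6:86028681-86124409), the beta adducin of red cells and neurons, had 3.27, 4.87 and 3.07 CPM in Wild type and 32.1 and 46.6 CPM in Irf2bp2 KO, a log2 fold change of 3.39. Tmod1 (ENSMUSG00000028328, chr4:46038935-46116032), the tropomodulin that caps the slow end of the actin filament, had 1.27, 1.94 and 1.06 CPM against 8.28 and 9.29 CPM, a log2 fold change of 2.61. Wild type 3 was the lowest control for both, as it was for the other members apart from Epb41, for which it was the highest.

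**Figure D1:**
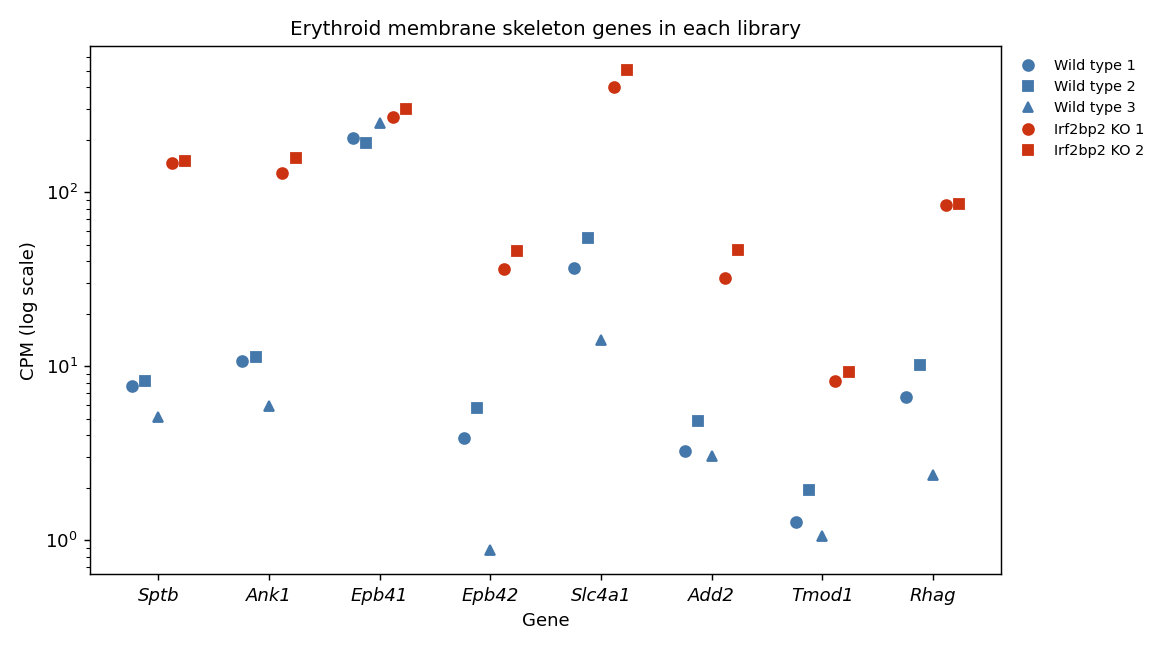
CPM (log scale) of the 8 genes in the 3 Wild type (blue) and 2 Irf2bp2 KO (red) libraries, with 1 point per library. Epb41 was between 192 and 301 CPM throughout, whereas the other 7 genes were between 0.88 and 54.5 CPM in Wild type and between 8.28 and 504 CPM in Irf2bp2 KO.

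Over the 8 genes, 7 met the call used for all genes, which asked for an edgeR adjusted p below 0.05 together with a fold change of 1 or more on the log2 scale, and Epb41 did not; of the 15350 genes tested, 2.47% were called higher and 0.111% lower. The groups did not overlap, with the knockout higher, for all 8, against 18.2% of all genes tested. Since the genes were chosen on this contrast, nothing is read from these counts. The median log2 fold change of the 8 was 3.59, beside -0.02 over all genes tested. It was 4.04 without Wild type 2 and 3.29 without Wild type 3.

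Per kilobase of exon, the order of the levels in both knockout libraries was Slc4a1, Rhag, Epb41, Sptb, Ank1, Epb42, Add2 and Tmod1, and the ranges of neighbours did not overlap. Slc4a1 was at 82.4 and 103 CPM per kilobase, Rhag at 36.2 and 36.7, and Tmod1 at 2.1 and 2.36. In Wild type, Epb41 came first at 12.1 to 15.6 CPM per kilobase, followed by Slc4a1 at 2.88 to 11.2 and Rhag at 1.02 to 4.35. The ranges of Slc4a1 and Rhag overlapped. The other 5 were between 0.16 and 1.07 CPM per kilobase, and neighbours in their order overlapped. With the longest annotated transcript as the length, Ank1 came before Sptb in both knockout libraries and the other positions stayed the same.

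The erythroid members were also set against their families in the same libraries, per kilobase of exon. Sptb made up 2.59%, 3.78% and 1.26% of the summed beta spectrins in Wild type and 33.3% and 35.7% in Irf2bp2 KO. Most of the rest was Sptbn1, the beta spectrin of most cells, which was at 23.8, 17.1 and 33.1 CPM per kilobase in Wild type and 24.3 and 22.2 in Irf2bp2 KO, so that the groups overlapped. Slc4a1 made up 49.8%, 60.2% and 22.2% of the anion exchangers Slc4a1 to Slc4a3 in Wild type and 92.1% and 92.8% in Irf2bp2 KO.

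Tmod1 made up 1.21% to 2.57% of the tropomodulins in Wild type and 12.7% and 13.2% in Irf2bp2 KO, with Tmod3 the main form in all 5 libraries. Add2 remained a small part of the adducins, at 0.25% to 0.47% in Wild type and 3.23% and 4.60% in Irf2bp2 KO, next to the widely expressed Add1 and Add3. Epb42, which is related to the transglutaminases, made up 9.10% to 16.7% of that family in Wild type and 44.4% and 60.7% in Irf2bp2 KO. Ank1 made up at least 98.6% of the ankyrins in every library. Rhag held 36.2% to 47.9% of the Rh family in Wild type and 50.1% and 56.9% in Irf2bp2 KO. Rhd, which encodes the Rh antigen protein, had 4.91, 12.2 and 2.0 CPM in Wild type and 43.7 and 58.2 CPM in Irf2bp2 KO.

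**Figure D2:**
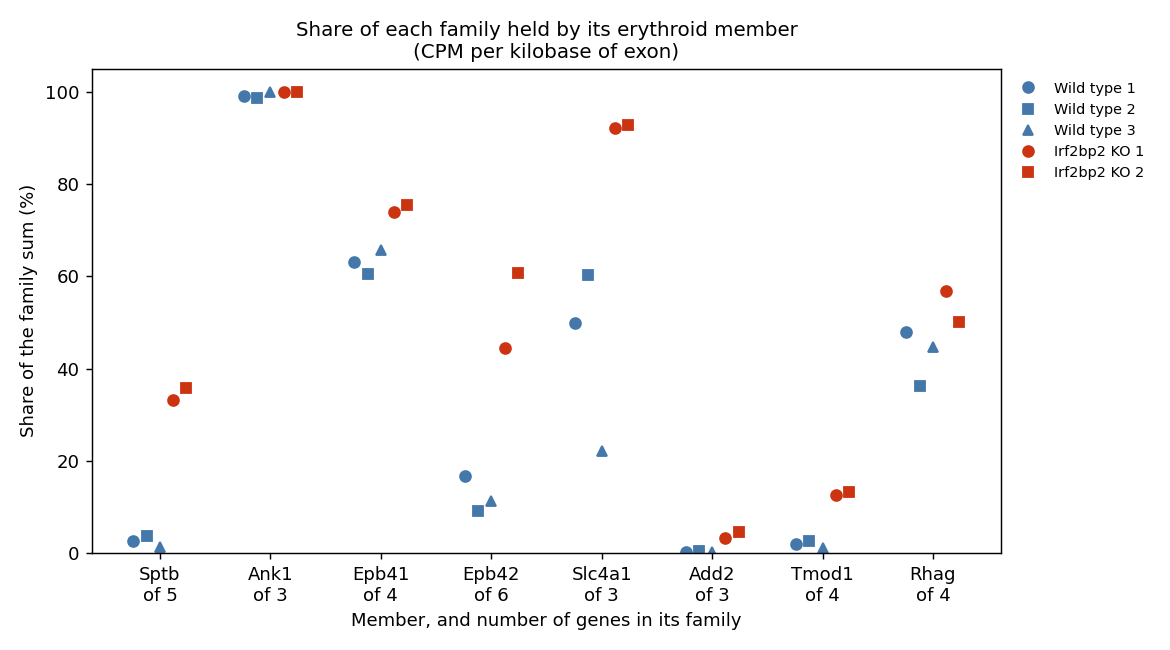
Share (%) of each family's summed CPM per kilobase of exon held by its erythroid member, with 1 point per library (blue, Wild type; red, Irf2bp2 KO) and the number of genes in the family under each name. The Sptb share was at most 3.78% in Wild type and at least 33.3% in Irf2bp2 KO, while Ank1 was at 98.6% or above throughout.

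Of 30 relatives of the members in these and neighbouring families, 18 passed the filter on low counts and 0 were called in either direction by edgeR (4 at an unadjusted p under 0.05; 0 by DESeq2). Their median log2 fold change was -0.10. Over all genes tested, 2.47% were called higher and 0.111% lower, so a count of 0 among 18 is near that share and nothing is read from it. Sptan1, a spectrin of most cells, had 335, 306 and 511 CPM in Wild type and 337 and 373 CPM in Irf2bp2 KO. Slc4a2, the widely expressed anion exchanger, had 62.9, 61.4 and 83.9 CPM against 58.4 and 66.6 CPM.

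Of 15 partners in the skeleton, 2 were called higher and 0 lower, beside 2.47% and 0.111% of all genes tested. The median log2 fold change of the partners was -0.19. Among those called was Dmtn, the dematin that bundles actin at the junction. It was at 3.48, 5.45 and 2.31 CPM in Wild type and at 30.6 and 43.4 CPM in Irf2bp2 KO, a log2 fold change of 3.28 (SE 0.36, edgeR adjusted p = 0.01). The 13 partners that were not called were the actin, tropomyosin, capping protein and other genes shared with most cells. Among them, Add1 had 415, 357 and 429 CPM against 337 and 363 CPM and a log2 fold change of -0.19 (SE 0.14, edgeR adjusted p = 0.573). Mpp1, the palmitoylated protein p55 bound by protein 4.1R, had 58.9, 65.4 and 62.1 CPM against 72.8 and 67.5 CPM and a log2 fold change of 0.18 (SE 0.12, edgeR adjusted p = 0.547). The call of Dmtn was lost without Wild type 1 or without Irf2bp2 KO 2, which left 1 partner called.

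Among 28 other proteins of the red cell membrane, 12 were called higher and 0 lower, beside 2.47% and 0.111% of all genes tested. Their median log2 fold change was 1.32. Aqp1, a water channel, had 18.5, 29.5 and 13.2 CPM in Wild type and 176 and 243 CPM in Irf2bp2 KO, a log2 fold change of 3.35 (SE 0.33, edgeR adjusted p = 0.00971). Kel, the Kell blood group protein, and Xk, which is bound to it, had log2 fold changes of 3.04 and 1.87 and were called as well (edgeR adjusted p = 0.0284 and 0.00841). Gypc, Slc2a4, Ermap, Stom, Smim1, Abcb6, Ackr1 and Atp2b4 were also called. Slc2a4 had 10, 15 and 3 counts in Wild type 1, 2 and 3, and Ackr1 had 16, 10 and 3, the lowest at the floor of 3 counts. Gypc, at a log2 fold change of 1.05, passed the size of 1 narrowly and was at 0.95 without Wild type 3.

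Rhd, with a log2 fold change of 2.96 (SE 0.62), was not called (edgeR adjusted p = 0.0641). Cd47 and Kcnn4 were also among the 16 genes of this list that were not called. Cd47 had a log2 fold change of 0.01 (edgeR adjusted p = 0.978) and Kcnn4, a potassium channel, of -0.08 (edgeR adjusted p = 0.827). The count of 12 depended on single libraries. It was 0 without Wild type 1, 0 without Irf2bp2 KO 2 and 3 without Irf2bp2 KO 1, and DESeq2 on all libraries called 13.

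**Figure D3:**
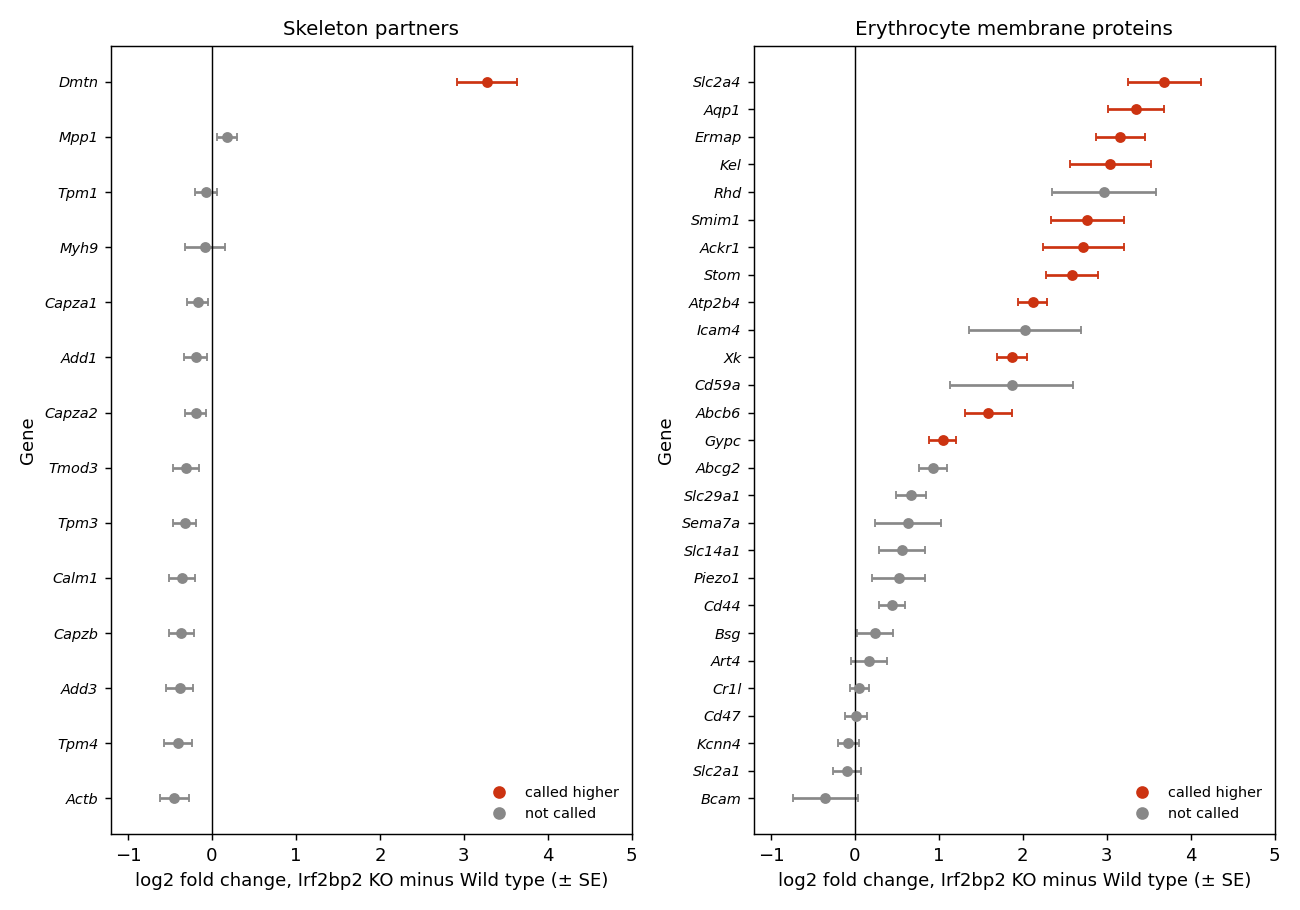
Log2 fold change (Irf2bp2 KO minus Wild type, ± SE of the edgeR fit) of 14 skeleton partners and 27 erythrocyte membrane proteins; red points were called higher, grey points were not called. Dmtn stands at 3.28, apart from the other partners drawn, which lie between -0.45 and 0.18, and 11 of the membrane proteins drawn were called.

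Some proportions among the membrane genes were similar in libraries whose levels differed widely. Per kilobase of exon, the ratio of Slc4a1 to Rhag was between 2.28 and 2.83 in all 5 libraries. The ratio of Slc4a1 to Ank1 was wider, from 6.55 to 13.3, and the knockout libraries, at 8.62 and 8.88, lay within the Wild type range. The ratio of Sptb to Ank1 was 0.80, 0.80 and 0.96 in Wild type and 1.27 and 1.07 in Irf2bp2 KO, with no overlap.

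The ratios to other erythroid genes differed between the groups. Slc4a1 to Gata1, the erythroid transcription factor, was 1.84, 1.67 and 0.99 in Wild type and 5.21 and 5.12 in Irf2bp2 KO, per kilobase of exon. The summed CPM of the 7 members other than Epb41 was 70.2, 96.8 and 32.5 in Wild type and 841 and 1001 in Irf2bp2 KO, 13.8-fold apart in the means; Epb41 was set aside after its values were seen. With Epb41 the sum of all 8 was 275, 289 and 281 CPM against 1112 and 1301 CPM, 4.28-fold apart. The 4 adult globin genes, which were not called, summed to 2169, 1150 and 557 CPM against 3690 and 5317 CPM, 3.49-fold apart. The 7 members thus amounted to 0.032, 0.084 and 0.058 of the globin sum in Wild type and to 0.228 and 0.188 in Irf2bp2 KO, and the groups did not overlap. Within Wild type the order differed too: the globin sum was highest in Wild type 1 and the sum of the 7 members in Wild type 2.

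**Figure D4:**
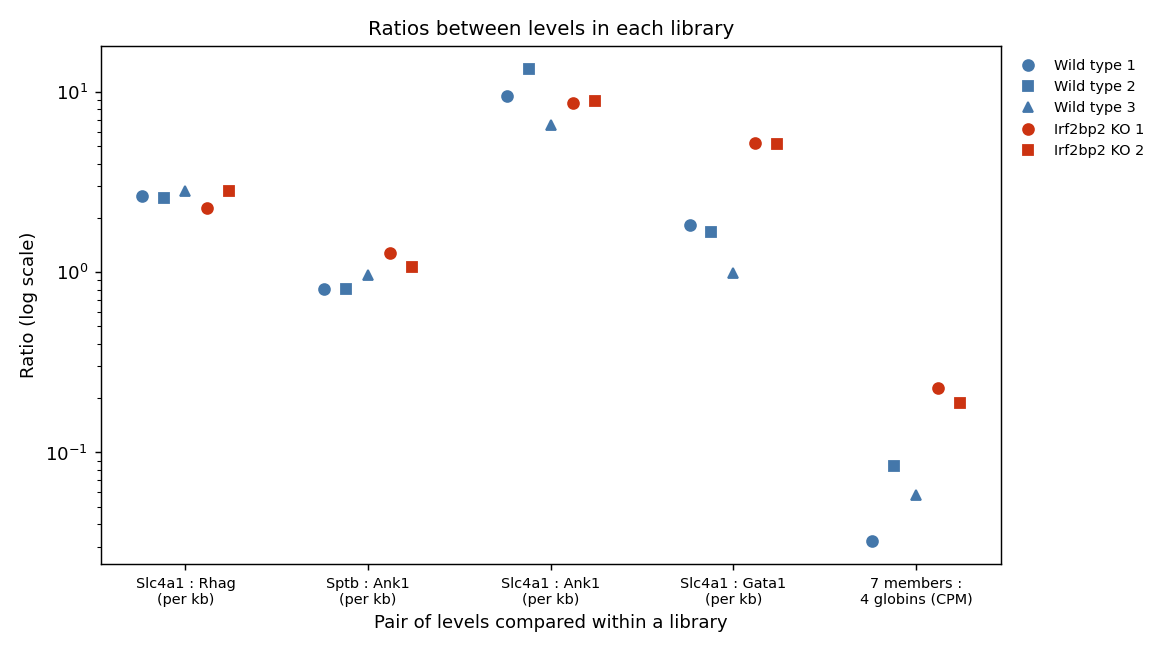
Ratios of levels within each library (log scale), per kilobase of exon or, for the globins, in CPM, with 1 point per library (blue, Wild type; red, Irf2bp2 KO). The ratios of Slc4a1 to Rhag and Slc4a1 to Ank1 overlapped between the groups, whereas Slc4a1 to Gata1 (0.99 to 1.84 against 5.12 and 5.21) and the 7 members to the globins did not.

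The genes whose profile over the 5 libraries was nearest to the mean of the 8 members were Ermap, Dmtn, Aqp1, Spire1 and Abcb10, in this order, out of 10318 other genes with a mean of at least 5 CPM. The measure was the root mean square distance of the centred log2 CPM, which was 0.05 for Ermap and 0.19 for Abcb10. The members themselves were between 0.25 (Add2) and 1.51 (Epb41) from their own mean. That mean included Epb41 and came from genes chosen on this contrast, so the ranking is only a description of these libraries. Ermap, a protein of the erythroid membrane, had 17.2, 21.7 and 10.1 CPM in Wild type and 139 and 156 CPM in Irf2bp2 KO. Abcb10, a transporter of the inner mitochondrial membrane, had 8.83, 12.1 and 7.13 CPM against 87.9 and 114 CPM.

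In J.gamma1 cells the human counterparts were tested on libraries that the choice of genes had not used. IRF2BP2 was at 204 and 199 CPM with shNC and at 79.0 and 93.8 CPM with shIRF2BP2. Of the 8 counterparts, 4 passed the filter on low counts, SPTB, EPB41, ADD2 and TMOD1, and 0 of the 4 were called by edgeR (0 at an unadjusted p under 0.05; 0 by DESeq2), where a call needed a difference of 0.5 or more on the log2 scale. Over the 15819 genes tested, 5.46% were called higher and 5.01% lower.

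SPTB had 9.96 and 10.6 CPM with shNC and 5.63 and 8.58 CPM with shIRF2BP2, a log2 fold change of -0.53 (SE 0.25, edgeR adjusted p = 0.215). ADD2 had 78.8 and 68.3 CPM against 91.2 and 87.3 CPM, a log2 fold change of 0.28 (SE 0.12, edgeR adjusted p = 0.188). The groups did not overlap for either gene, as for 28.7% (lower) and 29.6% (higher) of all genes tested. EPB41, at 231 to 284 CPM, had a log2 fold change of 0.04 (SE 0.14, edgeR adjusted p = 0.886), whose sign turned with the scaling and with the libraries used. TMOD1, at 1.27 to 2.06 CPM, had a log2 fold change of -0.28 (SE 0.39, edgeR adjusted p = 0.685).

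The other 4 counterparts were at or near 0 in J.gamma1 cells and were not tested. RHAG had 0 counts in all 4 libraries, ANK1 had at most 2 and EPB42 at most 4. SLC4A1 had 0 and 0 counts with shNC and 5 and 4 with shIRF2BP2. The knockout and the knockdown differ in species, cells and the extent of the loss, and their values were not compared by a test.

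**Figure D5:**
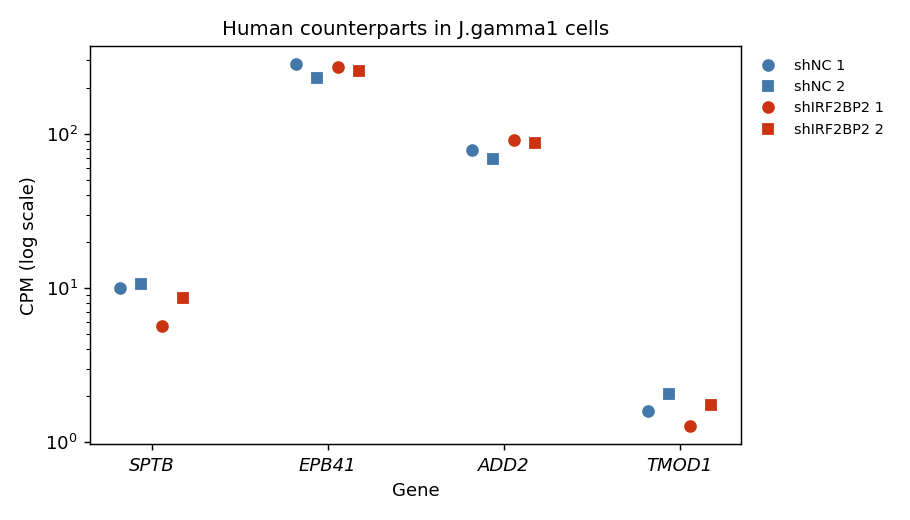
CPM (log scale) of the 4 tested human counterparts in J.gamma1 cells with shNC (blue) or shIRF2BP2 (red), with 1 point per library. EPB41 was between 231 and 284 CPM, and 0 of the 4 were called.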

How the data were processed

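Per the labels, total RNA of sorted mouse CD3+ T cells and of J.gamma1 cells was made into Illumina TruSeq libraries. The submitters' processing notes name HISAT2 2.2.0 and StringTie, with the builds mm10 and hg38. The files hold counts in whole numbers, 1 row for each Ensembl gene, which the authors did not normalize or pool. How StringTie's output became counts, and whether strand was used, are not given in the sources used here; near-identical or overlapping genes, such as the globin pairs, may share reads.

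Rows annotated in GENCODE M21 (GRCm38, the mm10 build) or 44 were kept, 42462 of 43432 mouse and 56105 of 64252 human rows; the chromosome annotation was chosen over the primary-assembly file after both had been run. After filterByExpr and TMM scaling, each table was tested by edgeR 4.0.16 (glmQLFit, glmQLFTest, R 4.3.3) with Benjamini-Hochberg adjustment over all genes tested. Called genes had an adjusted p below 0.05 and a log2 difference of 1 (mouse) or 0.5 (J.gamma1) or more in size. The study used DESeq2; DESeq2 1.42.0 was an alternative here. SE is the log2 fold change over the root of the F statistic. Levels per kilobase use the union of exons. All replicate pairs differed beyond sampling noise. Deviations of same-numbered mouse libraries correlated at 0.15 and -0.16 (Pearson r), so the numbers were not used as pairs. Promoters were read with Python 3.11.15.

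The members and lists were chosen with earlier results of these data known. Genes named were the members, list genes that were called or above 10 CPM in a mouse library, markers, the J.gamma1 counterparts and the 5 nearest profiles; which list genes were given with values was decided after these were seen. Of 16 erythroid marker symbols, 15 matched. In simulated counts with 200 genes changed 4-fold, edgeR recovered 180 among 15005 mouse genes (7 false calls) and 196 among 15489 J.gamma1 genes (5 false calls), and DESeq2 recovered 184 and 194 (34 and 11 false calls). Alternatives were other scalings and filters, all rows, a replicate block and leaving out each library. Some items are not reported here.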

Additional observations from a re-analysis of the deposited data

How the results depend on the processing

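Of 88 values of single members under the alternatives, 88 stayed within 1 SD of the reported log2 fold change and 0 turned. The SD was the pooled SD of the member's log2 CPM, from 0.17 (Epb41) to 1.14 (Epb42). Leaving out 1 library seldom moves a group mean by more than such an SD, so that count is no measure of stability. The median over the members was 4.04 without Wild type replicate 2 and between 3.29 and 4.04 with any library left out. The count of mouse genes called was 396 (379 higher, 17 lower); it was 801 (735 and 66) with DESeq2 and between 7 and 567 with a library left out (7 without Wild type replicate 1, 50 without Irf2bp2 KO replicate 1, 10 without Irf2bp2 KO replicate 2). With a library left out, 1 to 2 skeleton partners and 0 to 13 erythrocyte membrane proteins were called. The partners numbered 1 without Wild type replicate 1 or Irf2bp2 KO replicate 2, and the membrane proteins 0 without either of these, 3 without Irf2bp2 KO replicate 1 and 10 without Wild type replicate 3. Of 168 values of the 14 list genes called, 126 kept the call, 42 lost it and 0 turned. With the replicate number as a block, 442 mouse genes were called (407 higher, 35 lower), 2 partners and 10 membrane proteins; the numbers do not pair the mouse libraries. The block called 0 J.gamma1 counterparts. The log2 fold change of EPB41 was -0.012 with upper-quartile scaling, -0.10 without J.gamma1 shNC replicate 2 and -0.026 without J.gamma1 shIRF2BP2 replicate 1, and with a library left out it lay between -0.10 and 0.19. The primary-assembly annotation, an alternative added after the data were seen, gave 387 mouse genes called. Shares of the families with the longest transcript as the length, also added later, kept their direction, as did shares of raw counts. The causes of these shifts were not tested. Fewer libraries leave fewer residual degrees of freedom, of which the mouse fit had 3.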

Other observations

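Markers of other blood cells were measured in the same mouse libraries. Over all genes tested, 2.47% were called higher and 0.111% lower. A count of 0 in any of the lists below is near those shares and nothing is read from it. A count of 1 rests on a single gene. Of 9 blood progenitor markers, 8 were tested and 1 was called higher, Tal1, a transcription factor of early blood and erythroid cells, at 6.83, 16.2 and 4.63 CPM in Wild type and 68.8 and 88.9 CPM in Irf2bp2 KO (log2 fold change 3.07, SE 0.48, edgeR adjusted p = 0.0269). Kit, the stem cell factor receptor, had 14.3, 21.2 and 7.01 CPM against 34.0 and 26.9 CPM and was not called (edgeR adjusted p = 0.259). All 8 progenitor markers tested had a log2 fold change above 0, with a median of 1.05 (4 at an unadjusted edgeR p under 0.05, 1 called by DESeq2). The progenitor list summed to 21.5 to 70.4 CPM in Wild type and 143 and 150 CPM in Irf2bp2 KO. Of 10 platelet and megakaryocyte markers 8 were tested and 0 were called by edgeR (2 at an unadjusted p under 0.05; 1 by DESeq2), and their summed level was 8.20 to 18.8 CPM in Wild type and 16.6 to 21.4 CPM in Irf2bp2 KO. Of 11 red pulp macrophage markers 0 were called by edgeR (0 at an unadjusted p under 0.05; 0 by DESeq2), with sums of 116 to 503 CPM in Wild type and 222 and 293 CPM in Irf2bp2 KO.

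Of 8 plasma cell markers 1 was called higher, Prdm1, a transcription factor also made by activated T cells, at 14.1, 8.80 and 9.82 CPM in Wild type and 30.2 and 28.4 CPM in Irf2bp2 KO (log2 fold change 1.42, SE 0.24, edgeR adjusted p = 0.0317). The list summed to 505 to 1301 CPM in Wild type and 1243 and 1643 CPM in Irf2bp2 KO, and its median log2 fold change was 0.78. All 8 had a log2 fold change above 0 (4 at an unadjusted edgeR p under 0.05, 2 called by DESeq2). Most of the sum was Jchain, at 1029, 308 and 456 CPM in Wild type and 1311 and 991 CPM in Irf2bp2 KO, where the groups overlapped. Of 7 dendritic cell markers 1 was called higher, Zbtb46, at 1.43, 1.83 and 1.31 CPM in Wild type and 10.9 and 9.66 CPM in Irf2bp2 KO (log2 fold change 2.74, SE 0.28, edgeR adjusted p = 0.01). That list summed to 65.0 to 119.5 CPM in Wild type and 86.9 and 96.8 CPM in Irf2bp2 KO. Its log2 fold changes were mixed, with 4 of 7 above 0 and a median of 0.50 (4 at an unadjusted edgeR p under 0.05, 1 called by DESeq2). Siglech and Cd209a, at -2.14 and -2.81, were lower in Irf2bp2 KO and not called (edgeR adjusted p = 0.323 and 0.227). Of 12 granulocyte markers 10 were tested and 0 were called by edgeR (2 at an unadjusted p under 0.05; 1 by DESeq2). The median of their log2 fold changes was -2.21, and they summed to 5.82 to 255 CPM in Wild type, highest in Wild type 2, and 28.3 and 55.7 CPM in Irf2bp2 KO. Of 10 B cell markers 0 were called by edgeR (0 at an unadjusted p under 0.05; 0 by DESeq2), with sums of 38.1 to 288 CPM in Wild type and 40.7 and 135 CPM in Irf2bp2 KO. Of 7 natural killer cell markers 0 were called by edgeR (3 at an unadjusted p under 0.05; 1 by DESeq2), with sums of 134 to 169 CPM in Wild type and 156 and 273 CPM in Irf2bp2 KO. The part of these cell types in the results was not tested.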
